A study of Mus musculus with 9 samples.

Results

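Histone acetylation genes encode the writers, erasers and readers of the acetyl group on histone lysines. The set described here holds 36 genes: 11 acetyltransferases, 11 zinc-dependent deacetylases, 7 NAD-dependent sirtuins and 7 bromodomain readers. They were picked by gene symbol from the array's annotation, by a rule that uses no measured value. The list itself was drawn up with earlier results of these data known. Of the 36 genes, 31 had a named probe (49 probes in all), and 27 were detected and tested, out of 16593 genes named on the array and 7354 tested. No probe used here carried the name of Kat6a, Sirt4, Brd3, Brd7 or Bptf. Ncoa2, Hdac9, Hdac11 and Brd1 had probes that were detected on 0 of 9 arrays, so no level or change is given for them. Detection did not hang on 1 group, since 26 of the 27 tested genes were detected on all 9 arrays and Ncoa3 on 8.

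Acetyltransferases move an acetyl group from acetyl-CoA to lysines on histone tails, which loosens chromatin and makes a mark that bromodomain proteins bind. Deacetylases take it off again, by a zinc-dependent reaction in the HDAC family and by an NAD-consuming one in the sirtuins. Many of these enzymes also act on proteins other than histones, and some sirtuins work mainly in mitochondria. In the Wnt pathway, beta-catenin joined to TCF/LEF factors recruits CBP and p300, which are themselves histone acetyltransferases. LF3 is a small molecule that blocks binding of beta-catenin to TCF4, and ICG-001 is a small molecule that binds CBP and blocks its contact with beta-catenin.

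The cells were mouse salivary gland cancer stem cells of strain C57BL/6, isolated as primary cells and grown in DMEM/F12 with KSR supplement. Cells were given the solvent DMSO, LF3 or ICG-001 for 24 h, and total RNA was hybridised to Illumina bead arrays, with 3 arrays a group. The labels state no dose. Nor do they tell whether samples sharing a treatment came from separate cultures; p-values here reflect the scatter among these 9 samples only, and that scatter can be technical. They also do not give the tumour model or the way in which stem cells were selected. In such bulk RNA, fewer cells of a type and less RNA per cell cannot be told apart. Both inhibitors were compared with the same 3 DMSO arrays, so those comparisons are not independent of each other.

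Between 9939 and 10897 of 25697 probes were detected on each array. Mean signals before normalization ran from 398.2 to 467.3 under DMSO, 340.0 to 396.5 under LF3 and 368.3 to 409.4 under ICG-001. Arrays of 1 group correlated at r = 0.9873 to 0.9942 over the probes kept, and arrays of different groups at 0.9614 to 0.9835. Of the epithelial markers with a probe, 2 of 10 were detected on some arrays (Krt8 on 8 and Cldn7 on 5) and 0 on all 9. Cdh1, Krt5, Krt14 and Trp63 were not detected. Of the stem and progenitor markers 5 of 8 were detected (Aldh3a1, Cd44, Sox2, Sox9 and Itga6), 3 of them on all 9 arrays, while Cd24a, Prom1 and Lgr5 were not. Only 1 of the Cd44 probes was detected on all 9 arrays. Marker signals are summed here without normalization between arrays, so each sum also carries the mean signal of its array. Those of the 8 stem and progenitor markers summed to 20726.3 to 21901.7 with DMSO, 17701.7 to 21588.5 with LF3 and 8534.5 to 11205 with ICG-001. Aldh3a1 made up most of that sum, at a log2 intensity of 14.16 to 14.29 under DMSO and 12.98 to 13.21 under ICG-001, while the detected Cd44 probe was higher there (9.57 to 9.73, against 9.11 to 9.16). Of the salivary markers 4 of 9 were detected, with a summed signal of 12209.9 to 16202.9 under DMSO, 7746.4 to 9861.4 under LF3 and 8123.9 to 9579.1 under ICG-001. Wfdc2 was lower with both inhibitors on its brighter probe (12.38 to 12.63 under DMSO, at most 11.98 under either), Aqp5 was lower under ICG-001 on both probes, and Slc12a2 and Xbp1 were higher under ICG-001. Leukocyte markers were low, with summed signals of 332 to 386.9 over all arrays, and Ptprc, Adgre1, Itgam and Cd3e were not detected. Lyz2 and Cd74 were detected on some arrays, and Cd74 was higher with ICG-001 (5.22 to 6.07 over its probes) than with DMSO (4.40 to 4.53). Of the fibroblast markers 2 of 8 were detected (Col1a1 and Pdgfra), 1 of them on all 9 arrays, and 0 of 6 endothelial ones. These marker levels moved with the groups, and their part in the results below was not tested.

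Changes in the histone acetylation genes were moderate and mixed in direction. Hdac5, a class IIa deacetylase that represses MEF2 targets, fell under both compounds and fell further under ICG-001. Sirt1 fell under LF3, Sirt3 rose under ICG-001, and the acetyltransferases Kat5 (on 1 of its 2 probes) and Kat7 fell under ICG-001. Under LF3, 6 of the 27 genes passed the test (1 higher, 5 lower; limma, adjusted p under 0.05), against 22.4% of all genes tested. Under ICG-001, 8 passed (3 higher, 5 lower), against 37.7% of all genes. Between LF3 and ICG-001 directly, 12 passed (9 higher under LF3, 3 lower), against 39.7% of all genes (20.2% higher under LF3). In the F test among the 3 groups 16 passed, against 52.3% of all genes. As shares of the 27 the counts of the 3 comparisons are 22.2%, 29.6% and 44.4%, so the shares of the set lie near those of genes at large, or below them under ICG-001.

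The median log2 difference over the 27 genes was 0.04 under LF3 (0.01 over all genes) and -0.11 under ICG-001 (-0.00 over all genes). In 14 of the 27 genes (51.9%) the LF3 arrays did not overlap the DMSO arrays, against 36.8% of all genes. The same held for 12 genes (44.4%) under ICG-001, against 50.7% of all genes, and for 18 (66.7%) between the inhibitors, against 51.6%. Of the 27 genes, 17 passed in at least 1 comparison, and the share of all genes that did so is not given here. Against DMSO, 15 of the 27 passed under neither inhibitor, as 51.6% of all genes did. Hdac5 and Hat1 passed against DMSO under both inhibitors, both lower, as 4.99% of all genes did. Of the 27, 0 passed in opposite directions, against 0.816% of all genes lower under LF3 and higher under ICG-001 and 0.897% the other way. The 10 genes that passed in no comparison, on the probe that stood for them, were Kat2b, Ncoa1, Ncoa3, Hdac2, Hdac3, Hdac4, Hdac6, Sirt5, Sirt7 and Brd9.

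**Figure D1:**
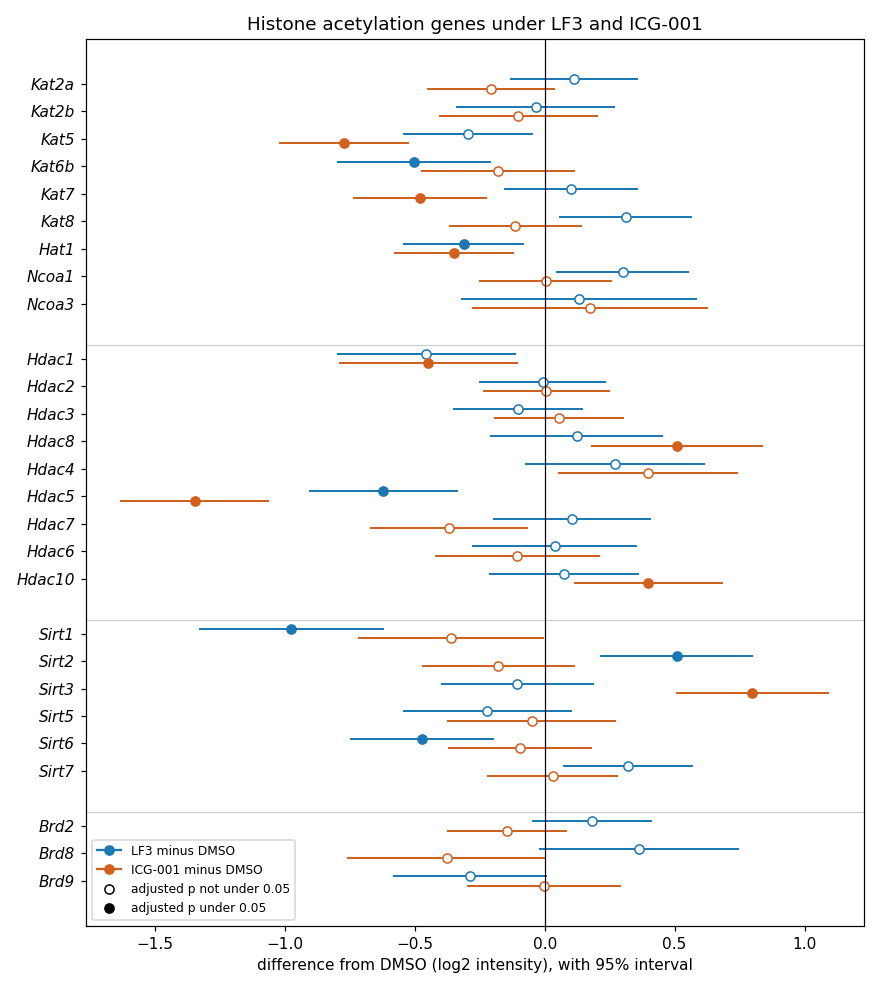
Log2 difference from DMSO with its 95% interval for the 27 tested genes, LF3 in blue and ICG-001 in orange; filled marks have an adjusted p under 0.05, and lines separate writers, zinc-dependent erasers, sirtuins and readers. Hdac5 under ICG-001 lies farthest to the left at -1.35, and Sirt3 under ICG-001 farthest to the right at 0.80.

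Of the 26 calls in the 3 comparisons, 12 held under all 22 alternative settings tried. Against DMSO these were Hdac5 and Sirt1 under LF3, and Hdac5, Sirt3, Kat5 and Kat7 under ICG-001. Between the inhibitors they were Hdac5, Kat7, Sirt1, Sirt2, Sirt3 and Brd8. The Kat5 call rests on its brightest probe, since a second detected probe differed from DMSO by -0.02 under ICG-001 (limma adjusted p = 0.931). Each of the other 14 ended under at least 1 alternative, and the main ones are given beside the gene. How many calls of all genes hold in this way was not counted, so these counts have no background share. With each array scaled by its median over all probes, the median of all genes itself moved to -0.14 in LF3 minus DMSO, and the members that passed split into 0 higher and 8 lower in place of 1 and 5. With that scaling all genes split into 375 higher and 1466 lower, in place of 810 and 835. Between the inhibitors, the members then split into 4 higher and 7 lower under LF3, in place of 9 and 3. In LF3 minus DMSO, with medians taken over probes detected on every array, all genes split into 1086 higher and 655 lower. The members split there into 2 and 4, and between the inhibitors into 10 higher and 2 lower under LF3. Directions of small changes under LF3 are therefore relative to the scaling used.

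The start-site windows of the 5 genes whose change against DMSO held throughout are printed here. They are the genes on which the account rests most, though the Kat5 change rests on 1 of its 2 probes. Each window runs from 250 bases before to 50 bases after the annotated start, on the gene's own strand, from RefSeq on GRCm38.p6. All 5 genes lie on the minus strand. Capitals mark matches, on either strand, to TCAAAG (core of the TCF/LEF motif), TGACG (half-site of the cAMP response element, bound by CREB, after which CBP is named) or CACGTG (the E-box). The last 2 motifs can share letters, and where they join as CACGTGACG the whole run is in capitals.
Hdac5 (chr11:102230123-102230422): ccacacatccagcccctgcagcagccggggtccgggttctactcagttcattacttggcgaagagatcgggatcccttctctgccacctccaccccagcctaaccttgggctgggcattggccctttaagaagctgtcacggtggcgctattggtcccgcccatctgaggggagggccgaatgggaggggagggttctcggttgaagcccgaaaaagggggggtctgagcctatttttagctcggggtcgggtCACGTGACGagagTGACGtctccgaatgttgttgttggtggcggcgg
Sirt1 (chr10:63338986-63339285): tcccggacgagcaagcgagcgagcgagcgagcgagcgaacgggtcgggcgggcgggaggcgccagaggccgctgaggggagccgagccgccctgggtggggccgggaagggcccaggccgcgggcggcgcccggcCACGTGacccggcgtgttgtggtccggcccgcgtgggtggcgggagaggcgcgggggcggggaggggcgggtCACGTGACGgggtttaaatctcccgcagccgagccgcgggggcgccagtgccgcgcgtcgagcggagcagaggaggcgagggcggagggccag
Kat5 (chr19:5610045-5610344, 1 of 2 windows): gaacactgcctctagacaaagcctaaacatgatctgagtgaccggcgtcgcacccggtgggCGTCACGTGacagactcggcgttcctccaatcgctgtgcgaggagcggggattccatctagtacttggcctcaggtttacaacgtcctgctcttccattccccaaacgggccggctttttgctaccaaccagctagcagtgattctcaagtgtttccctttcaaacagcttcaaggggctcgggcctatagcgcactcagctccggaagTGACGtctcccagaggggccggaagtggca
Kat7 (chr11:95310197-95310496): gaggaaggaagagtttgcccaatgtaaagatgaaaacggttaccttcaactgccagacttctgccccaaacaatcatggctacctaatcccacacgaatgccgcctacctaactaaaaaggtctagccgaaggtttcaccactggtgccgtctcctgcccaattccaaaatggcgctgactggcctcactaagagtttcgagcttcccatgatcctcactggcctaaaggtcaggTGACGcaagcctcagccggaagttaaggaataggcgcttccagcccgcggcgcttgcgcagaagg
Sirt3 (chr7:140882260-140882559, 1 of 2 windows): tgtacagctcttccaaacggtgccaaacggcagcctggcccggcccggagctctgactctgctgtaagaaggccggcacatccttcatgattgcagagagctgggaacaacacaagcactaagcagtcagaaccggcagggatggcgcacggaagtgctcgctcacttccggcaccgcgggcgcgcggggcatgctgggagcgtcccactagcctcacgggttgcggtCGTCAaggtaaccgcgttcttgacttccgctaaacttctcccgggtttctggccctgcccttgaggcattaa

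In these windows the TCF/LEF letters occurred 0 times, while 16% of all 32851 mouse windows and 11.4% of those of tested genes hold them. Over the 29 members with a window, 2 of 42 windows hold TCAAAG (4.76%), in Kat2b and Sirt7. The TGACG half-site occurred in each window printed, 15 bases before the start in Kat7 and 22 bases before it in Sirt3. The Sirt3 window not printed lacks TGACG, and the Kat5 window not printed holds it 102 bases before the start. Over all members TGACG stood in 13 of 42 windows (31%), against 32.5% for tested genes. The joined run CACGTGACG stood 4 bases after the start in Hdac5, 43 bases before it in Sirt1 and 189 bases before it in Kat5. That run was looked for only after these sequences had been seen. It is in 3 of 42 member windows (7.14%), those 3 genes, against 0.996% of the windows of tested genes and 0.451% of all windows. The Kat5 window not printed holds neither the joined run nor an E-box. Sequence matches are a description of these letters and say nothing of what binds there.

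Among the acetyltransferases, 9 of 11 were tested. Under LF3, 0 rose and 2 fell (Kat6b and Hat1), and under ICG-001 0 rose and 3 fell (Kat5, Kat7 and Hat1). These are 22.2% and 33.3% of the 9, near the 22.4% and 37.7% of all genes. Between the inhibitors 4 were higher under LF3 (Kat2a, Kat5, Kat7 and Kat8) and 0 lower, which is 44.4% against 39.7% of all genes. With median scaling over all probes the calls of Kat2a, Kat5 and Kat8 ended, and Kat6b passed as lower under LF3 (limma adjusted p = 0.016). The median log2 difference of the 9 was 0.10 under LF3 and -0.18 under ICG-001, and their median difference between the inhibitors was 0.30 (0.003 over all genes).

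Kat5 encodes TIP60, the catalytic subunit of the NuA4/TIP60 complex that acetylates histones H4 and H2A and also ATM. Its log2 intensity was 7.80, 7.85 and 7.92 on the DMSO arrays, 7.44, 7.53 and 7.71 on the LF3 arrays and 7.09, 7.15 and 7.00 on the ICG-001 arrays. All ICG-001 arrays lay below all LF3 arrays, which lay below all DMSO arrays. Kat5 fell 1.71-fold under ICG-001 (log2 difference -0.77, adjusted p = 0.000166 by limma), while the LF3 difference of -0.30 did not pass (adjusted p = 0.0821). The level under LF3 was 0.48 higher than under ICG-001 (adjusted p = 0.00506), which ended only with median scaling over all probes (adjusted p = 0.0823). A second, dimmer Kat5 probe gave other values: it was 0.45 higher than DMSO under LF3 (adjusted p = 0.0488) and -0.02 apart from DMSO under ICG-001 (adjusted p = 0.931). On that probe too LF3 stood above ICG-001, by 0.47 (adjusted p = 0.0251). The fall of Kat5 against DMSO thus rests on 1 of its 2 probes, and the gap between the inhibitors on both.

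Kat7 encodes HBO1, the enzyme of the BRPF and JADE complexes that acetylates H3 and H4 and takes part in the licensing of replication origins. It stood at 8.63, 8.93 and 8.95 under DMSO, at 9.00, 8.89 and 8.93 under LF3 and at 8.33, 8.39 and 8.34 under ICG-001. Only the ICG-001 arrays lay apart from the rest, and LF3 overlapped DMSO. Kat7 fell 1.40-fold under ICG-001 (log2 difference -0.48, adjusted p = 0.00587) and was 0.58 higher under LF3 than under ICG-001 (adjusted p = 0.00167). The LF3 difference from DMSO was 0.10 (adjusted p = 0.576; limma for all 3).

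Kat6b encodes MORF, the paralog of MOZ. Its values were 7.16, 7.38 and 7.59 under DMSO, 6.87, 6.69 and 7.07 under LF3 and 7.14, 7.26 and 7.20 under ICG-001. All LF3 arrays lay below all others, the highest of them close to the lowest DMSO array. Kat6b fell 1.42-fold under LF3 (log2 difference -0.50, limma adjusted p = 0.0187). The call ended without the second DMSO array (adjusted p = 0.0594), the third DMSO array (0.0868) or the second LF3 array (0.0809). Under ICG-001 the difference was -0.18 (adjusted p = 0.329), and the gap between the inhibitors, -0.33, did not pass (adjusted p = 0.0725), so a difference between the compounds is not shown for this gene. The other 3 Kat6b probes were detected on 0 arrays.

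Hat1 acetylates newly made histone H4 before it is laid down on DNA. It was bright on every array, at 13.03, 12.94 and 12.89 under DMSO, 12.67, 12.66 and 12.59 under LF3 and 12.60, 12.61 and 12.60 under ICG-001. Both treated groups lay below all DMSO arrays and overlapped each other. Hat1 fell 1.27-fold under ICG-001 (log2 difference -0.35, limma adjusted p = 0.0189) and by 0.31 on the log2 scale under LF3 (adjusted p = 0.0494). The second of these calls was at the edge: it held in 8 of 22 alternatives and ended when any single array was left out (adjusted p from 0.0663 to 0.112). The ICG-001 call ended without any 1 of the 3 ICG-001 arrays (adjusted p 0.0503 to 0.0527). Median scaling over all probes ended both (adjusted p = 0.246 for LF3 and 0.131 for ICG-001). LF3 and ICG-001 differed by 0.04 (adjusted p = 0.809).

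Kat2a and Kat8 passed only in the direct comparison of the inhibitors. Kat2a, which encodes GCN5, the enzyme of the SAGA and ATAC complexes, stood at 9.41, 9.39 and 9.41 under DMSO, 9.55, 9.54 and 9.45 under LF3 and 9.33, 9.07 and 9.19 under ICG-001. LF3 lay above DMSO and ICG-001 below it on every array, by 0.11 (adjusted p = 0.509) and -0.21 (adjusted p = 0.169) on average. The gap of 0.32 between them passed (limma adjusted p = 0.0365) and ended without the second or the third ICG-001 array (adjusted p = 0.153 and 0.0924) or the first or second LF3 array (0.0954 and 0.0872). Median scaling over all probes brought that Kat2a gap to 0.20 (adjusted p = 0.299). Kat8 encodes MOF, the H4 acetyltransferase of the MSL and NSL complexes. It stood at 7.45, 7.44 and 7.70 under DMSO, 7.78, 7.94 and 7.80 under LF3 and 7.41, 7.48 and 7.36 under ICG-001. LF3 lay above every other array, and ICG-001 overlapped DMSO. The LF3 level was 0.42 above ICG-001 (limma adjusted p = 0.0112), which ended only with median scaling over all probes (adjusted p = 0.18), and 0.31 above DMSO (adjusted p = 0.0743).

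The remaining acetyltransferases did not pass. Kat2b, which encodes PCAF, differed from DMSO by -0.03 under LF3 and -0.10 under ICG-001 on its brightest probe. A second Kat2b probe of nearly the same mean, brighter than the first under DMSO, was lower under LF3 than under DMSO (log2 difference -0.56, limma adjusted p = 0.00889) and than under ICG-001 (-0.37, adjusted p = 0.0413), so the probes of this gene differ too. Ncoa1 and Ncoa3, nuclear receptor coactivators with reported acetyltransferase activity, differed from DMSO by 0.30 and 0.13 under LF3 and by 0.00 and 0.17 under ICG-001. Ep300, which encodes p300, the paralog of CBP, differed by -0.34 under LF3 (adjusted p = 0.119) and by 0.01 under ICG-001 (adjusted p = 0.98). Crebbp is not analysed here.

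**Figure D2:**
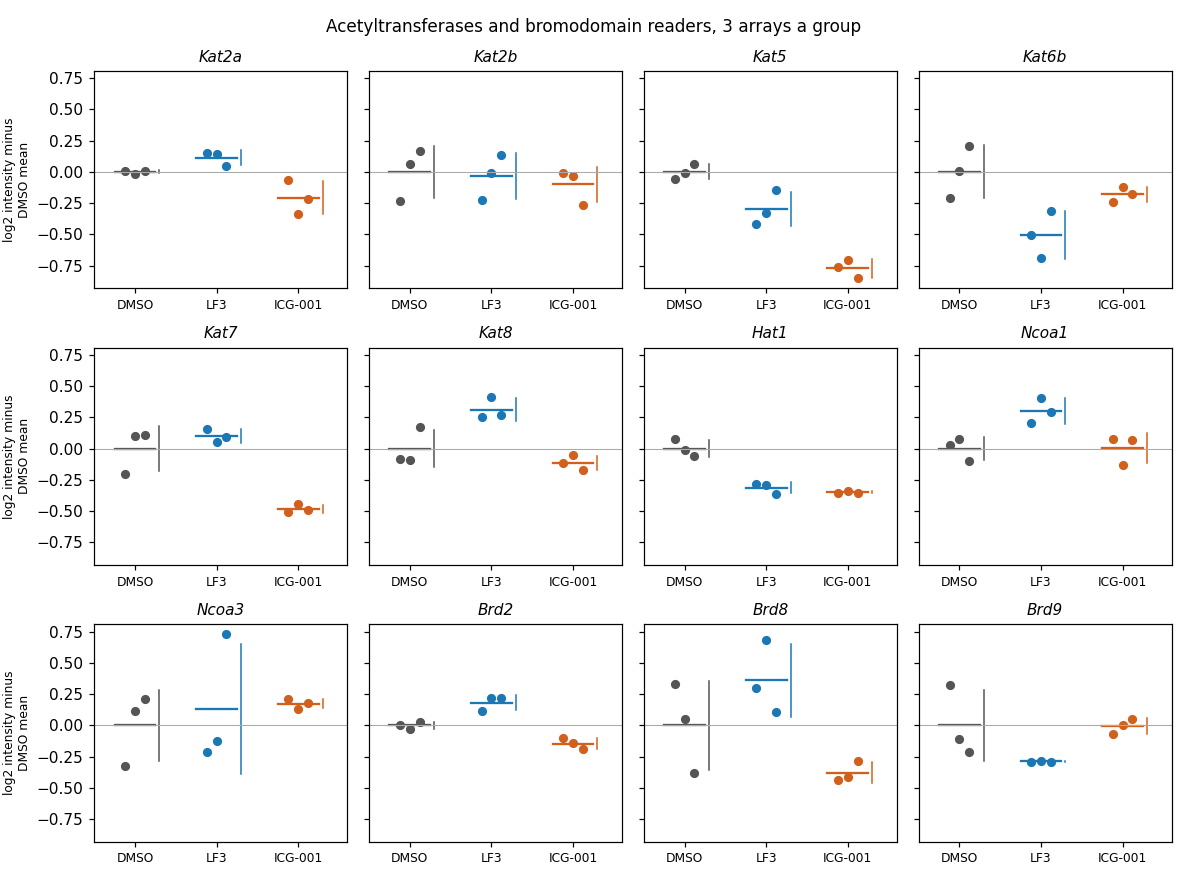
Log2 intensity of 9 acetyltransferases and 3 bromodomain readers on each array, relative to the mean of the 3 DMSO arrays; points are arrays, bars group means and thin lines ± 1 SD. Kat5, Kat7 and Hat1 lie below DMSO on all 3 ICG-001 arrays, and 1 LF3 array of Ncoa3 stands far above the other two.

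Among the zinc-dependent deacetylases, 9 of 11 were tested. Under LF3, 0 rose and 1 fell (Hdac5). Under ICG-001, 2 rose (Hdac8 and Hdac10) and 2 fell (Hdac5 and Hdac1). Between the inhibitors 2 were higher under LF3 (Hdac5 and Hdac7) and 0 lower. As shares of the 9 these calls are 11.1%, 44.4% and 22.2%, against 22.4%, 37.7% and 39.7% of all genes. The median log2 difference of the 9 was 0.04 under LF3 and 0.01 under ICG-001.

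Hdac5 gave the widest change of any member. On the DMSO arrays its log2 intensity was 10.38, 10.42 and 10.21, on the LF3 arrays 9.81, 9.83 and 9.50 and on the ICG-001 arrays 9.15, 8.83 and 8.99. The 3 groups did not overlap, with DMSO highest, LF3 between and ICG-001 lowest. Hdac5 fell 1.54-fold under LF3 (log2 difference -0.62, 95% interval -0.91 to -0.34, limma adjusted p = 0.00501). Under ICG-001 it fell 2.55-fold (log2 difference -1.35, interval -1.63 to -1.06, adjusted p = 4.33e-06). The level under LF3 was 0.73 above that under ICG-001 (adjusted p = 0.000769). Both other Hdac5 probes gave the same order, with log2 differences of -0.54 and -0.54 under LF3 (adjusted p = 0.00473 and 0.0192) and of -1.25 and -1.22 under ICG-001 (2.5e-06 and 2.72e-05). All 3 comparisons of Hdac5 passed in all 22 alternatives.

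The other tested class IIa enzymes, Hdac4 and Hdac7, like Hdac5 shuttle out of the nucleus on phosphorylation. Neither passed against DMSO. Hdac4 differed from DMSO by 0.27 under LF3 (adjusted p = 0.247) and 0.40 under ICG-001 (adjusted p = 0.0663). Hdac7 stood at 8.70, 8.65 and 8.69 under DMSO, 8.81, 8.48 and 9.06 under LF3 and 8.39, 8.22 and 8.31 under ICG-001. ICG-001 lay below every DMSO and LF3 array, and LF3 spread on both sides of DMSO. The Hdac7 difference of -0.37 under ICG-001 missed the threshold (limma adjusted p = 0.0528) and passed in 12 of 22 alternatives. Hdac7 was 0.47 higher under LF3 than under ICG-001 (adjusted p = 0.016), a call that ended with median scaling over all probes (adjusted p = 0.1) or without the second ICG-001 array or the third LF3 array (0.0614 for each).

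Of the class I enzymes, Hdac1 and Hdac2 are the paired catalytic subunits of the SIN3, NuRD and CoREST complexes, and Hdac3 is that of NCoR/SMRT. Hdac1 stood at 9.30, 9.44 and 9.17 under DMSO, 8.96, 8.45 and 9.15 under LF3 and 8.93, 8.87 and 8.78 under ICG-001. Both treated groups lay below DMSO on every array, LF3 with a wide spread. Hdac1 fell 1.36-fold under ICG-001 (log2 difference -0.45, limma adjusted p = 0.0402), and its LF3 difference of -0.46 missed the threshold (adjusted p = 0.0555). These are values of about the same size on either side of the threshold, and neither is firm. The ICG-001 call ended in 8 of 22 alternatives, among them leaving out the first or second DMSO array (adjusted p = 0.0704 and 0.137) or any ICG-001 array (0.064 to 0.114), and the LF3 difference passed in 9 of 22. Hdac2 differed from DMSO by -0.01 under LF3 (95% interval -0.25 to 0.23) and 0.01 under ICG-001 (-0.24 to 0.25). Hdac3 differed by -0.10 and 0.05.

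Hdac8, a class I enzyme that works outside those complexes and deacetylates the cohesin subunit SMC3, stood at 6.03, 5.55 and 5.95 under DMSO, 5.75, 6.07 and 6.09 under LF3 and 6.44, 6.15 and 6.47 under ICG-001. Only ICG-001 lay above every DMSO array. Hdac8 rose 1.42-fold under ICG-001 (log2 difference 0.51, limma adjusted p = 0.0183). The call ended without the second DMSO array (adjusted p = 0.0979) or the first or the third ICG-001 array (0.0642 and 0.0712), and when dim probes were not filtered (0.0565).

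Hdac10 is a class IIb enzyme known as a polyamine deacetylase. Its values were 6.41, 6.60 and 6.16 under DMSO, 6.37, 6.63 and 6.39 under LF3 and 6.79, 6.84 and 6.73 under ICG-001. Again ICG-001 alone lay above every DMSO array. Hdac10 rose 1.32-fold under ICG-001 (log2 difference 0.40, limma adjusted p = 0.0295), a call that ended without the third DMSO array (adjusted p = 0.137) or any ICG-001 array (0.0539 to 0.0929), with median scaling (0.0959) and with no filter on dim probes (0.0506). For both genes the gap between the inhibitors missed the threshold (LF3 minus ICG-001 of -0.39 with adjusted p = 0.0598 for Hdac8, and -0.32 with 0.0658 for Hdac10). Hdac6, the tubulin deacetylase of class IIb, differed from DMSO by 0.04 under LF3 and -0.11 under ICG-001.

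**Figure D3:**
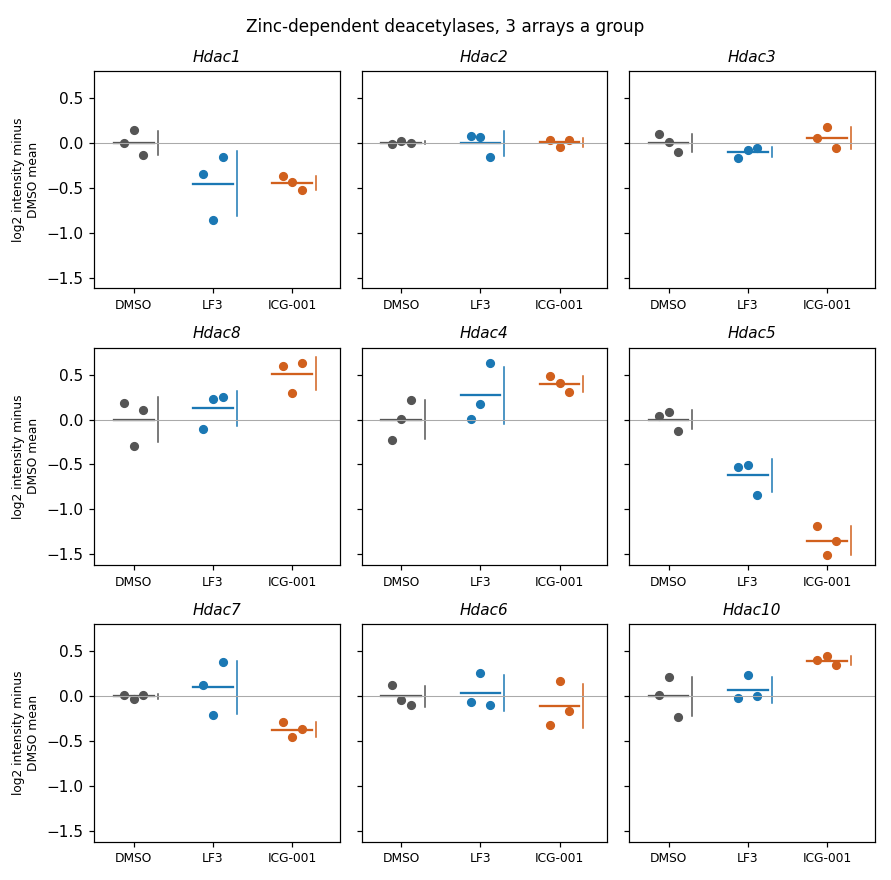
Log2 intensity of 9 zinc-dependent deacetylases on each array, relative to the DMSO mean; points are arrays, bars group means and thin lines ± 1 SD. Hdac5 steps down from DMSO to LF3 to ICG-001, Hdac2 stays within 0.2 of the DMSO mean, and 1 LF3 array of Hdac1 stands well below the other two.

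Of the sirtuins, 6 of 7 were tested. Under LF3, 1 rose (Sirt2) and 2 fell (Sirt1 and Sirt6), and under ICG-001 1 rose (Sirt3) and 0 fell. Between the inhibitors 1 was higher under LF3 (Sirt2) and 3 were lower (Sirt1, Sirt3 and Sirt6). As shares of the 6 these calls are 50%, 16.7% and 66.7%, against 22.4%, 37.7% and 39.7% of all genes. Where a sirtuin passed against DMSO under 1 inhibitor, the direct comparison passed as well. The share of all genes for which this holds is not given here, and the comparisons share arrays.

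Sirt1, the nuclear deacetylase of p53, FOXO factors and histone H4, stood at 7.82, 8.15 and 8.22 under DMSO, 7.01, 7.43 and 6.84 under LF3 and 7.85, 7.78 and 7.49 under ICG-001. LF3 lay below every other array, while ICG-001 reached the lowest DMSO array. Sirt1 fell 1.97-fold under LF3 (log2 difference -0.98, limma adjusted p = 0.00125), and the ICG-001 difference was -0.36 (adjusted p = 0.102). The gap of -0.61 between LF3 and ICG-001 passed (adjusted p = 0.00923), and both calls held in all 22 alternatives.

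Sirt3 is the main deacetylase of mitochondria. It stood at 7.66, 8.00 and 8.06 under DMSO, 7.93, 7.67 and 7.81 under LF3 and 8.55, 8.83 and 8.73 under ICG-001. ICG-001 lay above every other array, and LF3 overlapped DMSO. Sirt3 rose 1.74-fold under ICG-001 (log2 difference 0.80, limma adjusted p = 0.000461), and differed from DMSO by -0.11 under LF3 (adjusted p = 0.618). LF3 minus ICG-001 was -0.90 (adjusted p = 0.000192).

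Sirt2, a mostly cytoplasmic enzyme that acts on tubulin and on H4 in mitosis, stood at 7.83, 7.67 and 7.36 under DMSO, 8.04, 8.29 and 8.05 under LF3 and 7.36, 7.47 and 7.49 under ICG-001. LF3 lay above every other array, and ICG-001 lay at the low end of DMSO. Sirt2 rose 1.42-fold under LF3 (log2 difference 0.51, limma adjusted p = 0.0175) and was 0.69 higher under LF3 than under ICG-001 (adjusted p = 0.00137). The call against DMSO ended without the third DMSO array (adjusted p = 0.0855) or the second LF3 array (0.0732) and with median scaling over all probes (0.165), while the call between the inhibitors held in all 22 alternatives.

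Sirt6, a chromatin enzyme that removes acetyl groups from histone H3 and takes part in DNA repair, stood at 6.23, 5.95 and 6.29 under DMSO, 5.51, 5.79 and 5.75 under LF3 and 6.01, 6.13 and 6.05 under ICG-001. LF3 lay below every other array. Sirt6 fell 1.39-fold under LF3 (log2 difference -0.47, limma adjusted p = 0.0187), which ended without the third DMSO array (adjusted p = 0.0797) or the first LF3 array (0.0713). A second probe was detected on 0 LF3 arrays, so it entered the test through the groups where it was high and lends no support. It was at least 1.24-fold lower under LF3 than under DMSO (limma adjusted p = 0.0469), while its LF3 and DMSO arrays overlapped. The bound takes, on each LF3 array, the higher of the probe's own signal and the lowest signal among detected probes. The gap of -0.38 between LF3 and ICG-001 passed (adjusted p = 0.0307) but ended in 8 of 22 alternatives, among them without the first LF3 array (0.128) or any ICG-001 array (0.0548 to 0.104).

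Sirt7, the nucleolar deacetylase linked to ribosomal RNA synthesis, stood at 10.06 ± 0.052 under DMSO (SD, n = 3), and its single arrays read 10.52, 10.36 and 10.26 under LF3 and 10.08, 10.18 and 10.01 under ICG-001. All LF3 arrays lay above the rest, yet the difference of 0.32 from DMSO missed the threshold (limma adjusted p = 0.0611) and passed in 9 of 22 alternatives. Sirt5, which removes succinyl and malonyl groups in mitochondria, differed from DMSO by -0.22 under LF3 and -0.05 under ICG-001.

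**Figure D4:**
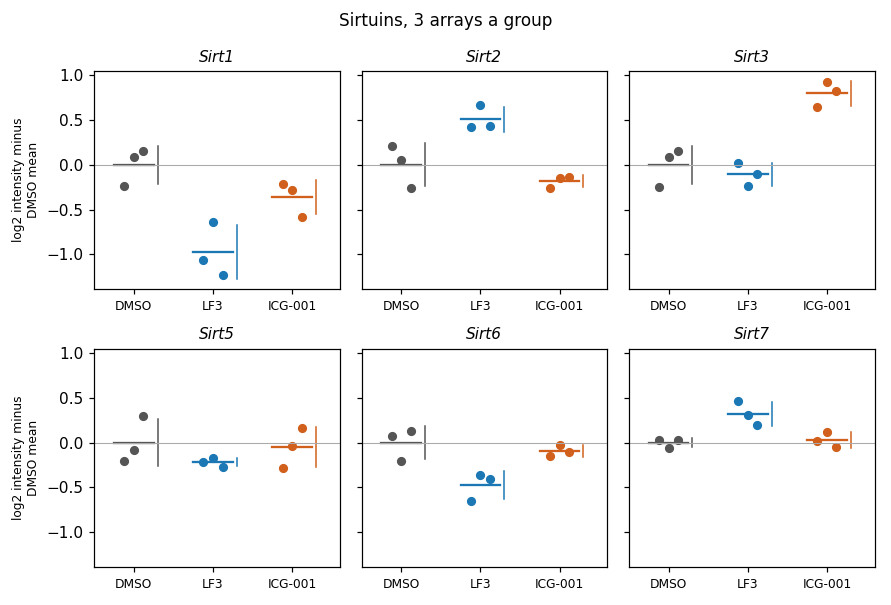
Log2 intensity of 6 sirtuins on each array, relative to the DMSO mean; points are arrays, bars group means and thin lines ± 1 SD. Sirt1 and Sirt6 are lowest and Sirt2 highest under LF3, and Sirt3 is highest under ICG-001.

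Of the bromodomain readers, 3 of 7 were tested. Against DMSO 0 passed under either inhibitor, and between the inhibitors 2 (Brd2 and Brd8) were higher under LF3. Of all genes, 22.4% passed under LF3, 37.7% under ICG-001 and 39.7% between the inhibitors, and 3 readers are too few to set against these shares. Brd8 is a reader subunit of the NuA4/TIP60 complex, whose enzyme is Kat5. It stood at 6.48, 6.20 and 5.77 under DMSO, 6.45, 6.83 and 6.26 under LF3 and 5.71, 5.74 and 5.87 under ICG-001. The LF3 and ICG-001 arrays did not overlap, and DMSO spread across both. Brd8 was 1.67-fold higher under LF3 than under ICG-001 (log2 difference 0.74, limma adjusted p = 0.0048), and differed from DMSO by 0.36 (adjusted p = 0.161) and -0.38 (adjusted p = 0.111). A second Brd8 probe gave a gap of 0.56 (adjusted p = 0.00516). Another, dimmer probe was detected on 3 LF3 arrays, 1 DMSO array and 0 ICG-001 arrays. It entered the test through the group where it was high, so its pass against DMSO under LF3 (0.50, adjusted p = 0.0365) and its fold of at least 1.2 over ICG-001 lend no support.

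Brd2 belongs to the BET family, which binds acetylated H4 and aids transcription. Its brightest probe stood at 10.86, 10.83 and 10.88 under DMSO, 10.97, 11.08 and 11.07 under LF3 and 10.75, 10.71 and 10.67 under ICG-001. LF3 lay above DMSO and ICG-001 below it on every array. The gap of 0.33 between the inhibitors passed (limma adjusted p = 0.0247) and ended without the second or the third ICG-001 array (adjusted p = 0.0685 and 0.0824) or the second LF3 array (0.066), and with median scaling over all probes (0.129). The other Brd2 probes gave gaps of 0.03 (adjusted p = 0.882) and 0.64 (adjusted p = 0.0183), so its probes differ. Brd9, a subunit of a BAF remodelling complex, differed from DMSO by -0.29 under LF3 (adjusted p = 0.148) and -0.00 under ICG-001.

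In all, 8 tested genes had more than 1 detected probe. The probes of Hdac5 passed in every comparison, with the same directions. The brightest Sirt6 probe passed, lower under LF3, against DMSO and against ICG-001. Its second probe passed there too, but it was kept only through the DMSO and ICG-001 arrays and lends no support. Those of Hdac6 and Sirt5 passed nowhere. Those of Kat2b, Kat5, Brd2 and Brd8 differed in which comparison passed. The other 19 tested genes rest on 1 probe each.

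**Figure D5:**
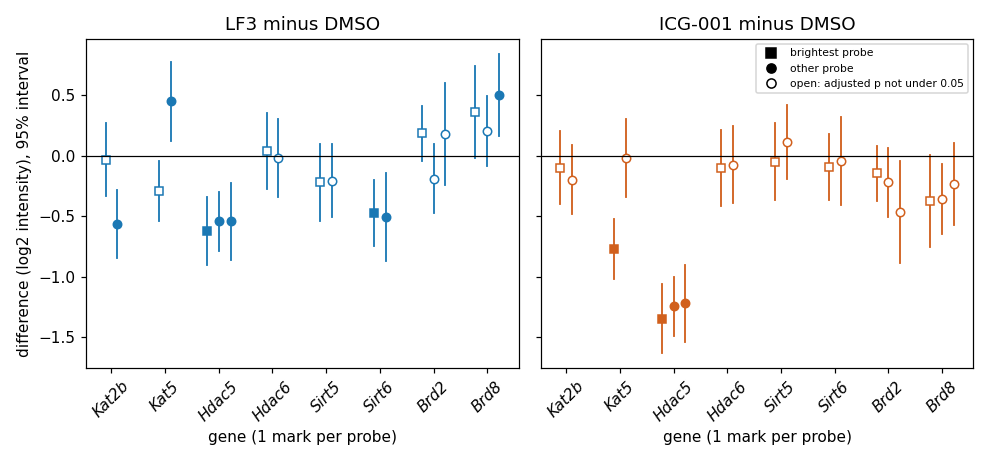
Log2 difference from DMSO for each detected probe of the 8 genes with more than 1, LF3 on the left and ICG-001 on the right; squares are the brightest probe, open marks did not pass and lines are 95% intervals. All 3 probes of Hdac5 lie well below 0 in both panels, and the 2 Kat5 probes part under each inhibitor.

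The partners of these enzymes were described from lists of subunits and substrate suppliers. Of 53 partners of the writers, 37 were tested: 2 rose and 3 fell under LF3, and 3 rose and 6 fell under ICG-001. Under LF3 the lowest adjusted p-values were those of Yeats2, an ATAC subunit that reads acetyl-lysine (log2 difference -0.63, limma adjusted p = 0.0169), Ing3 of NuA4/TIP60 (-0.42, 0.0196) and Taf6l of SAGA (-0.40, 0.0347), and all 3 fell. Under ICG-001 they were those of Mcrs1, an NSL subunit, which fell by 1.05 (log2 difference -1.05, adjusted p = 3.34e-05), Kansl3, also of NSL, which rose by 0.69 (0.000579; 0.31 on a second probe, adjusted p = 0.184), and Ing4 of the HBO1 complex, which fell by 0.48 (0.00532). Mcrs1 and Kansl3, both of the complex that holds MOF, thus moved in opposite directions under ICG-001.

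Of 36 partners of the erasers, 23 were tested: 1 rose and 2 fell under LF3, and 3 rose and 3 fell under ICG-001. Mta1, a NuRD subunit, stood at 7.10, 7.19 and 6.95 under DMSO, 7.80, 7.82 and 7.77 under LF3 and 7.28, 7.49 and 7.40 under ICG-001. The groups did not overlap, with LF3 highest. It rose by 0.71 under LF3 (limma adjusted p = 0.000921) and by 0.31 under ICG-001 (adjusted p = 0.0482). Mier1, which recruits Hdac1, fell by 0.58 under LF3 (adjusted p = 0.00395), while another of its probes differed by 0.25 (adjusted p = 0.203). Brms1 of the SIN3 complex fell by 0.39 (adjusted p = 0.038). Under ICG-001, Ing1, a SIN3 subunit that binds methylated H3, fell by 0.74 (adjusted p = 0.00086), while its paralog Ing2 rose by 0.60 (adjusted p = 0.00165) and Tbl1x of NCoR/SMRT rose by 0.86 (adjusted p = 0.0028). Ing1 and Ing2 also parted between the inhibitors, with LF3 minus ICG-001 at 0.60 (adjusted p = 0.00332) and -0.75 (adjusted p = 0.000317).

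Of 27 other readers of acetyl-lysine, 14 were tested: 1 rose and 2 fell under LF3, and 0 rose and 3 fell under ICG-001. Mllt3, which encodes AF9, a YEATS-domain reader of the super elongation and DOT1L complexes, passed in opposite directions. It stood at 8.14, 8.11 and 8.21 under DMSO, 8.80, 8.71 and 8.89 under LF3 and 7.92, 7.73 and 7.40 under ICG-001. No group overlapped another, with DMSO between the inhibitors. Mllt3 rose by 0.64 under LF3 (limma adjusted p = 0.00463) and fell by 0.47 under ICG-001 (adjusted p = 0.0148), and the gap of 1.11 between them passed (adjusted p = 3.69e-05). A second Mllt3 probe rose by 0.59 under LF3 (adjusted p = 0.00303), and its ICG-001 difference of -0.24 did not pass (adjusted p = 0.12). Atad2, a bromodomain ATPase of replicating chromatin, fell by 0.64 under LF3 (adjusted p = 0.00172) and differed by 0.03 under ICG-001. Zmynd8 fell by 0.93 under ICG-001 (adjusted p = 0.00454) and Yeats2 by 0.50 (adjusted p = 0.0314).

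Of 15 genes of acetyl-CoA and NAD supply, 9 were tested: 1 rose and 0 fell under LF3, and 1 rose and 4 fell under ICG-001. Nnmt, which methylates nicotinamide and so withdraws it from NAD salvage, rose under both, by 0.47 under LF3 (limma adjusted p = 0.0102) and 0.60 under ICG-001 (adjusted p = 0.000944). Its second probe differed by 0.25 and 0.34 and did not pass (adjusted p = 0.234 and 0.0715). Acly, which makes acetyl-CoA from citrate, was at 12.28, 12.39 and 12.25 under DMSO, 12.07, 11.94 and 12.14 under LF3 and 11.92, 11.85 and 11.81 under ICG-001. Both treated groups lay below DMSO, ICG-001 lowest. Acly fell by 0.45 under ICG-001 (adjusted p = 0.00629), and its LF3 difference was -0.25 (adjusted p = 0.119). Acss2, which makes acetyl-CoA from acetate, differed by -0.30 under LF3 (adjusted p = 0.076) and fell by 0.41 under ICG-001 (adjusted p = 0.0116). Parp1, a consumer of NAD, fell by 0.42 under ICG-001 (adjusted p = 0.0112). As shares of those tested, 55.6% of these genes passed under ICG-001, against 24.3% of the writers' partners, 26.1% of the erasers' partners and 21.4% of the other readers, where all genes stood at 37.7%. Under LF3 the shares were 11.1% for the supply genes, 13.5% and 13% for the partners of writers and erasers and 21.4% for the other readers, against 22.4% of all genes.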

How the data were processed

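Per the file headers, each array has 2 deposited columns in the main table: signal intensity on a linear scale, not normalized between arrays, and a detection p-value. The detection columns have no sample name of their own and were assigned by position, each to the signal column just before it; 0 columns stayed unmapped. The submitters' processing notes name GenomeStudio 2010.1, and the authors' processed intensities, whose normalization is not given in the sources used here, served as an alternative. The platform annotation gave a gene symbol to 23978 of 25697 probes.

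Background was corrected with the normexp model on the detection p-values at an offset of 16, followed by log2 and quantile steps (limma 3.58.1 in R 4.3.3). The 10830 probes detected at p under 0.01 on 3 or more of the 9 arrays were kept, and a gene's brightest kept probe stood for it. The offset shrinks changes of dim genes. All 9 arrays entered 1 limma fit (lmFit, eBayes), p-values were two-sided and Benjamini-Hochberg adjusted over all kept probes, with calls made at adjusted p under 0.05. Log2 differences had a median standard error of 0.136, which 3 arrays a group limit. A fold is 2 to the power of the log2 difference. The code was tested on simulated data.

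Member genes and lists were chosen with earlier results of these data known. Members that passed in any comparison are given by array, and of each partner list the 3 genes with the lowest adjusted p against DMSO are named; the joined motif was added after the sequences were seen.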

Additional observations from a re-analysis of the deposited data

How the results depend on the processing

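Over the tested members, 22 alternatives gave 1779 values: 1631 stayed on the same side of the threshold, 68 lost a call, 80 gained one and 0 changed sign after a call. Without a filter on dim probes, 5 of 31 members passed under ICG-001 in place of 8 of 27. Of all genes, 2558 of 16593 then passed, in place of 2773 of 7354. With array weights 11 members passed under LF3 in place of 6, and 2205 of all genes in place of 1645. Leaving out 1 array at a time gave 2 to 8 members under LF3, 4 to 10 under ICG-001, 9 to 14 between the inhibitors and 10 to 16 in the F test among the groups (16 with all arrays). Under LF3 the lowest counts came without the third DMSO array (2) or the second LF3 array (3). Under ICG-001 they came without the first (4), the second (5) or the third (4) ICG-001 array, and the F test gave 10 without the third ICG-001 array. Over all genes the ranges were 876 to 1876 under LF3, 2164 to 2944 under ICG-001, 2278 to 3140 between the inhibitors and 3196 to 4086 for the F test. The lowest under LF3 came without the second DMSO array (876), the third DMSO array (933) or the second LF3 array (1019).

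Deviations of same-numbered arrays from their group means correlated at -0.233 to 0.143 (9 pairs), those of other numbers at -0.219 to 0.339. Same-numbered arrays were thus not more alike than others. With 3 arrays a group this cannot exclude a weak pairing by number. With a replicate block, 5, 7 and 11 members passed in the 3 comparisons and 15 in the F test, and 1464, 2645, 2797 and 3698 genes overall. Hat1 under LF3 (adjusted p = 0.082), Hdac1 under ICG-001 (0.0502) and Kat2a between the inhibitors (0.056) were no longer called.

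After the data were seen, 2 alternatives were added: median scaling over detected probes, and leaving out the first DMSO and the third LF3 arrays, whose residual SD was highest (0.191 and 0.193, against 0.124 to 0.161). Without that pair 9, 10 and 15 members passed, and 1994, 3058 and 3171 genes overall. Median scaling over all probes split the genes called between the inhibitors into 915 higher and 1824 lower under LF3, in place of 1489 and 1434. Causes of these shifts were not tested. Dim probes near background (Sirt6, Hdac8, Hdac10, Brd8) have changes that the offset shrinks.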

Other observations

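Of the 68 tested genes whose start-site window holds CACGTGACG, 10 were higher and 8 lower under LF3, and 13 higher and 14 lower under ICG-001 (limma, adjusted p under 0.05). The lower share is 11.8% under LF3 and 20.6% under ICG-001, against 11.3% and 18.9% of the 6079 tested genes with a window. Hdac5, Sirt1 and Kat5, which each fell under at least 1 inhibitor (Kat5 on 1 of its 2 probes), hold that run. Over all genes that hold it, the lower shares lie near the background. The median log2 difference of the 68 genes was -0.00 under LF3, against 0.00 over all tested genes with a window, and -0.15 under ICG-001, against -0.01.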
